A study of Mus musculus with 4 samples.

Results

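The genes described here are 10 stress-responsive genes: the metallothionein genes Mt1 and Mt2, the glucocorticoid-induced genes Sgk1, Errfi1, Zbtb16, Tsc22d3 and Fkbp5, the transcription factor genes Cebpd and Cebpb, and Nr3c1, the gene of the glucocorticoid receptor. They were chosen by name, with earlier results of these data known, so their counts beside the shares of all genes are a description only. All of their 20 probe sets were taken from an array table of 22690 probe sets for 12393 genes. The study measured gene expression in the hearts of mice with and without the cytokine IL-18, after aortic banding (a surgical narrowing of the aorta that overloads the left ventricle with pressure) or a sham operation, to ask what IL-18 does to gene expression in hypertrophy. There were 4 groups with 1 array each. The IL-18 null banded array held left ventricular RNA pooled from 6 mice, null for IL-18 on a C57BL/6 background and banded for 1 week. The IL-18 null sham array held left ventricular RNA of 5 sham-operated IL-18 knockout mice. The wild-type banded and wild-type sham arrays are labelled by genotype and surgery. The sources used here do not give their strain, banding time or exact pool size; the series design states 5 to 6 mice per pool. Age and sex of the mice are not given either. A pool hides the spread between its animals, so differences of 2 arrays carry neither an error nor a test.

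Metallothioneins are small cysteine-rich proteins that bind zinc and copper. Their genes are induced by metals through the factor MTF-1, and also by glucocorticoids and by inflammatory cytokines. Glucocorticoids act through the receptor encoded by Nr3c1, which is held by chaperones in the cytoplasm, moves to the nucleus when it binds hormone and activates target genes at palindromic DNA elements. Sgk1 encodes a kinase that regulates ion channels and cell survival, Errfi1 a feedback inhibitor of the EGF receptor family, and Zbtb16 a zinc finger repressor. Tsc22d3 encodes GILZ, an anti-inflammatory leucine zipper protein, and Fkbp5 a co-chaperone that lowers the receptor's affinity for hormone. Cebpd and Cebpb encode C/EBP factors of the acute-phase response. Several of these genes answer to more than 1 signal, and the array measures the RNA only.

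The promoters of the metallothionein pair and of Sgk1 are shown because they hold letter matches to DNA elements of the metal and the glucocorticoid response. Whether these matches are the sites that act in induction was not tested. Sequences are the windows from 250 bases before to 50 bases after the RefSeq start, on the plus strand of build GRCm38.p6, for Mt1 at chr8:94178839-94179138, for Mt2 at chr8:94172368-94172667 and for Sgk1 at chr10:21993640-21993939. Capitals mark the metal response element core (TGCACNC or TGCGCNC, either strand) in Mt1 and Mt2, and the full glucocorticoid response element (AGAACA and TGTTCT with any 3 bases between them, a palindrome) in Sgk1.
Mt1: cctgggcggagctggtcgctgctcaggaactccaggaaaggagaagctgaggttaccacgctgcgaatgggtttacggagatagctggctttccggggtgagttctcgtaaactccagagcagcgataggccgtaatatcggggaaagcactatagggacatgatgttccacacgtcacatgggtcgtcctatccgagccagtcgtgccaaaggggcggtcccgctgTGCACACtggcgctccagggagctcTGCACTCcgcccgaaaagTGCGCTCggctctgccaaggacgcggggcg
Mt2: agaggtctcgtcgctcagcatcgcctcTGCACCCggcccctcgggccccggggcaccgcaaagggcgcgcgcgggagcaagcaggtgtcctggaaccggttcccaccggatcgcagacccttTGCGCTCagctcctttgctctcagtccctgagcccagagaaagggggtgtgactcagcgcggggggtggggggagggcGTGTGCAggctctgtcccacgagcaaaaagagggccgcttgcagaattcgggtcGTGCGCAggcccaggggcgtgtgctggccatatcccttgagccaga
Sgk1: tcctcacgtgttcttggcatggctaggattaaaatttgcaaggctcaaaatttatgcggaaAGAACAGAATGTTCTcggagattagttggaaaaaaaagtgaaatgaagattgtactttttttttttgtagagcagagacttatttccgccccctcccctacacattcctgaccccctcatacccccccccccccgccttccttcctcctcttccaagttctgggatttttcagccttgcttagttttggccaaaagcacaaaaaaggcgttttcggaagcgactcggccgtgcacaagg

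The Mt1 window held 3 metal response cores and the Mt2 window 4, while 25.7% of 32851 windows held at least 1 and 1.97% held at least 3. Mt1 and Mt2 lie next to each other on chromosome 8, with 0 protein-coding genes between them and 6471 bases between their starts. The full glucocorticoid element was found in 1 of the 6 Sgk1 windows, 189 bases before that start, and in 3 of all 32851 windows (0.00913%). The search was also made for the half-site AGAACA (19% of windows), which overlaps the full element, the C/EBP site TTGCNNAA (10.8%) and the STAT site TTCNNNGAA (8.3%). Mt2 held 1 C/EBP site, 12 bases before its start, and Mt1 held none of these 3. The Sgk1 window with the full element held 3 half-sites, counting those within the element. Another Sgk1 window held a metal response core, 11 bases after its start. Of the remaining Sgk1 windows, 1 held a half-site and a STAT site, 1 a C/EBP site and 1 a half-site. Windows of 7 of the 10 genes were read, 15 windows in all. Zbtb16 and Cebpd had no RefSeq window at hand, and Nr3c1 was left out of this reading, so its matches are not known here. Beyond Mt1, Mt2 and Sgk1, Tsc22d3 held 1 half-site and 1 STAT site in its 3 windows. Errfi1, Fkbp5 and Cebpb held no match. These matches describe letters in a window and not binding.

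The wild-type arrays were the least alike of the 4. A log2 value of 6, or 64 intensity units, was used as a floor below which signal was not ranked; 29.2% to 32.3% of probe sets reached it. Over 5158 genes that reached the floor on at least 1 array, Pearson's r of log2 values was 0.938 between the IL-18 null arrays and 0.703 between the wild-type arrays (across genes, which are not replicates). The mean log2 excess of 3′ over middle probe sets of Gapdh, Actb and the bacterial control dap was 3.01 ± 1.47 on IL-18 null banded, 3.37 ± 1.14 on IL-18 null sham, 0.72 ± 1.14 on wild-type banded and 4.74 ± 0.14 on wild-type sham (SD over 3 transcripts, unfloored). With values set to the floor the wild-type sham mean was 3.04, near the IL-18 null arrays, and the other means were the same, so that wild-type banded was then the array apart by this measure. The IL-18 null banding comparison and the comparison of the banded arrays do not use wild-type sham, whose correlations with the other arrays were the lowest, and they are the values without it. All 10 cardiomyocyte markers were measured; Myh6, the adult myosin heavy chain, had intensities of 33514.9 to 39738.1. Il18 had log2 intensities of 2.89 to 3.19, below the floor on every array, so the genotype labels could not be checked.

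All 10 genes reached the floor on at least 1 array, and 8 of them on all 4 arrays by their brightest probe set. Of the 20 probe sets, 10 reached the floor on all arrays, 3 on some and 7 on none. The 7 silent ones were the second probe sets of Mt1, Errfi1, Zbtb16, Fkbp5, Cebpd and Cebpb and the third of Nr3c1. Values below are for the brightest probe set unless another is named.

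**Figure D1:**
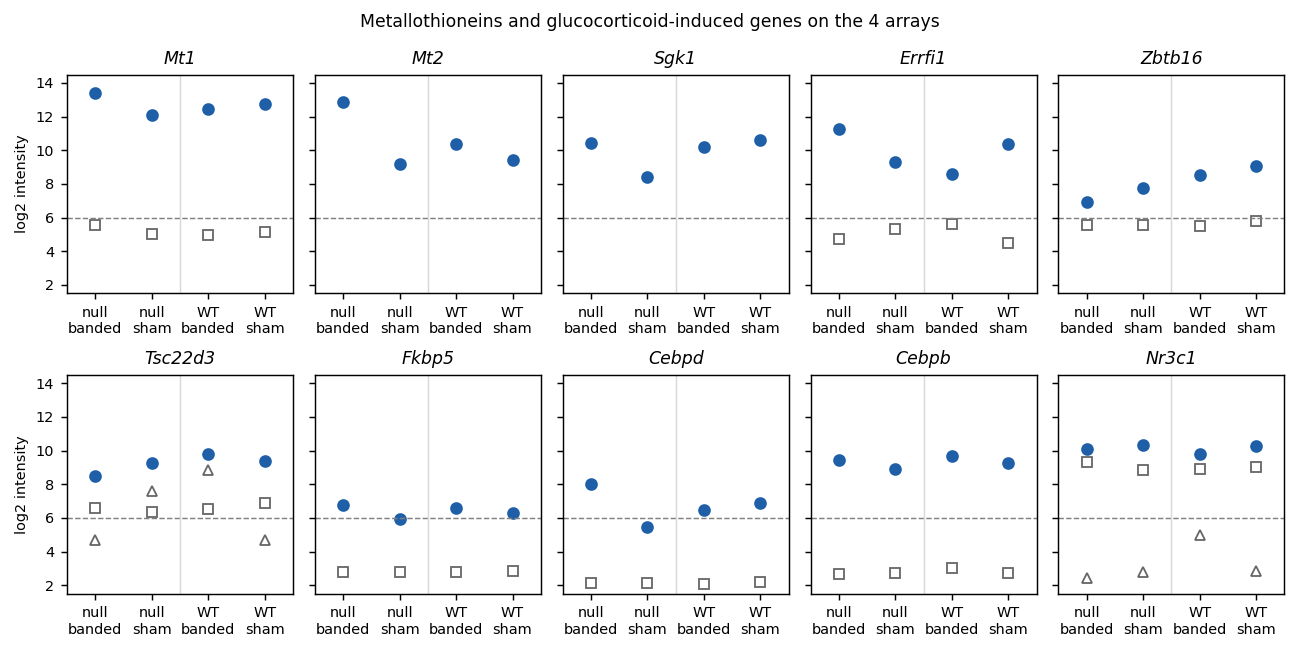
Log2 intensity (y axis) of every probe set of the 10 genes on each array (x axis; 1 pooled array per group, no error bars). Filled blue circles are the brightest probe set, open symbols the others, and the dashed line is the floor at log2 6; Mt2 is highest on IL-18 null banded and Zbtb16 lowest there.

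Banding in IL-18 null mice went with higher signal of both metallothioneins, Sgk1, Errfi1 and Cebpd, while Nr3c1, Cebpb, Zbtb16 and Tsc22d3 stayed within 2-fold by their brightest probe sets and Fkbp5 had only a bound under 2-fold. Mt2 had an intensity of 7384 on IL-18 null banded and 572.7 on IL-18 null sham, a log2 difference of 3.69 or 12.9-fold. On the wild-type arrays Mt2 had 1300.1 in banded and 695.1 in sham, a difference of 0.90 (1.06 with cyclic loess). The IL-18 null banded array was thus the highest of the 4, and wild-type banded came next. Mt1 had 10997.1 on IL-18 null banded and 4373.7 on IL-18 null sham, a difference of 1.33 or 2.51-fold, against 5694.4 on wild-type banded and 6823.1 on wild-type sham (-0.26). Both genes were highest on IL-18 null banded and lowest on IL-18 null sham, but the wild-type arrays took opposite orders for the pair. The Mt1 probe set ends in _s_at, a name used for probes shared between transcripts, so part of its signal may belong to a related metallothionein; the other Mt1 probe set had 46.4, 33.0, 31.5 and 35.9 on IL-18 null banded, IL-18 null sham, wild-type banded and wild-type sham, all below the floor. Of 4477 genes that reached the floor on both IL-18 null arrays, Mt2 had rank 6 from the highest difference and Mt1 rank 120.

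Sgk1 had an intensity of 1408.8 on IL-18 null banded and 347.6 on IL-18 null sham (2.02), against 1167.7 on wild-type banded and 1560.5 on wild-type sham (-0.42). Here 3 arrays lay close together and IL-18 null sham was the low one. Errfi1 had 2418.3 on IL-18 null banded and 628.7 on IL-18 null sham (1.94), against 379.9 on wild-type banded and 1329.8 on wild-type sham (-1.81). Its banding differences were thus of similar size and opposite sign in the 2 genotypes, each larger than 2-fold. Sgk1 had rank 38 and Errfi1 rank 44 from the highest of 4477 genes in IL-18 null, and Errfi1 had rank 60 from the lowest of 4047 genes in wild type. The second Errfi1 probe set lay below the floor throughout, with 26.5 and 40.5 on IL-18 null banded and sham and 48.4 and 22.2 on wild-type banded and sham. Within each genotype it ordered banded and sham the opposite way from the bright probe set. With the mean of both probe sets the Errfi1 differences were 0.67 in IL-18 null and -0.34 in wild type, and that of Mt1 in IL-18 null was 0.91, each within 2-fold.

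The C/EBP genes differed from each other. Cebpd had 258.6 on IL-18 null banded and 44.8 on IL-18 null sham, which is below the floor, so it was at least 4.04-fold higher in banded (log2 2.01). In wild type it had 88.8 in banded and 116.9 in sham (-0.40). Cebpd was therefore highest on IL-18 null banded, with the other arrays near or below the floor. Cebpb had 707.2 and 489.2 on IL-18 null banded and sham (0.53) and 825.1 and 616.2 on wild-type banded and sham (0.42). Both genotypes thus had a slightly higher Cebpb value in banded, neither past 2-fold.

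Of the genes often used as readouts of the glucocorticoid receptor, Zbtb16 was lower in both banded hearts, and Tsc22d3 was lower in banded IL-18 null hearts by its brightest probe set, both by less than 2-fold, and Fkbp5 was higher in both (in wild type not after quantile normalization), with only a bound in IL-18 null. Zbtb16 had 120.6 on IL-18 null banded and 215.3 on IL-18 null sham (-0.84), and 363.3 on wild-type banded and 540.0 on wild-type sham (-0.57). It was the lower in banded within both genotypes, and all its IL-18 null values lay below its wild-type values. Its probe set ends in _x_at, a name used for probes that can cross-hybridise, and its other probe set was below the floor on every array (45.4 to 55.2). Fkbp5 had 107.6 on IL-18 null banded and 61.8 on IL-18 null sham, below the floor (at least 1.68-fold, log2 0.75), and 95.1 and 79.8 on wild-type banded and sham (0.25, but -0.37 after quantile normalization). These values lie close to the floor, and the bound in IL-18 null does not limit the difference from above.

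The 3 measured probe sets of Tsc22d3 disagreed. The brightest had 365.9 on IL-18 null banded and 611.5 on IL-18 null sham (-0.74), and 881.8 on wild-type banded and 658.2 on wild-type sham (0.42). By this probe set IL-18 null banded was the lowest array and wild-type banded the highest. Another had 25.8 and 196.8 on IL-18 null banded and sham and 462.4 and 25.9 on wild-type banded and sham. It gave bounds of at least 3.08-fold lower in banded for IL-18 null and at least 7.23-fold higher for wild type. The remaining one, with 98.0 and 82.5 on the IL-18 null arrays and 93.0 and 117.3 on the wild-type arrays, in the order banded and sham, showed little difference. Their names end in _a_at or _x_at, which mark probes shared between transcripts, and Tsc22d3 has several starts in RefSeq. With the mean of all its probe sets Tsc22d3 was at -1.14 in IL-18 null and 1.42 in wild type, past 2-fold in both.

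Nr3c1, the receptor gene itself, had 1107.4 on IL-18 null banded and 1269.3 on IL-18 null sham (-0.20), and 899.9 on wild-type banded and 1257 on wild-type sham (-0.48). Its second measured probe set had 627.9 and 461.9 on IL-18 null banded and sham (0.44) and 488.3 and 524.0 on wild-type banded and sham (-0.10). Both probe sets stayed within 2-fold in all 4 comparisons, and they disagreed in sign for IL-18 null banding.

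Counted together, 5 of the 10 genes passed 2-fold upward with banding in IL-18 null and 0 downward, where 6.98% of 4827 genes were higher and 2.53% lower (5.47% and 3.18% after quantile normalization). The median of the 10 was 1.04, against 0.08 over all genes tested. With the mean of all probe sets it was 0.37, and 2 of 8 measured members were higher and 1 lower. In wild-type banding 0 of the 10 were higher and 1, Errfi1, was lower, where 21.7% and 12.8% of 5040 genes passed (16.6% and 24.8% after quantile normalization, 24.3% and 8.37% with cyclic loess). Their median there was -0.33 (-0.08 over all genes; 0.07 for the 10 with the mean of all probe sets). The difference of the banding responses, IL-18 null minus wild type, was past 2-fold and positive for Errfi1 (3.75), Mt2 (2.79), Sgk1 (2.44), Cebpd (2.41) and Mt1 (1.59), and negative for Tsc22d3 (-1.16). With the mean of all probe sets it was 1.01 for Errfi1 and -2.56 for Tsc22d3. That is 5 higher and 1 lower of 10, beside 20.4% and 21% of 5158 genes (28.1% and 17.4% after quantile normalization, 13.6% and 24.7% with cyclic loess). Quantile normalization moved the median of all genes in wild-type banding to -0.42 from -0.08 as deposited; relative to that median, the Mt2 difference in wild type, 0.67 after that step, stayed positive.

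**Figure D2:**
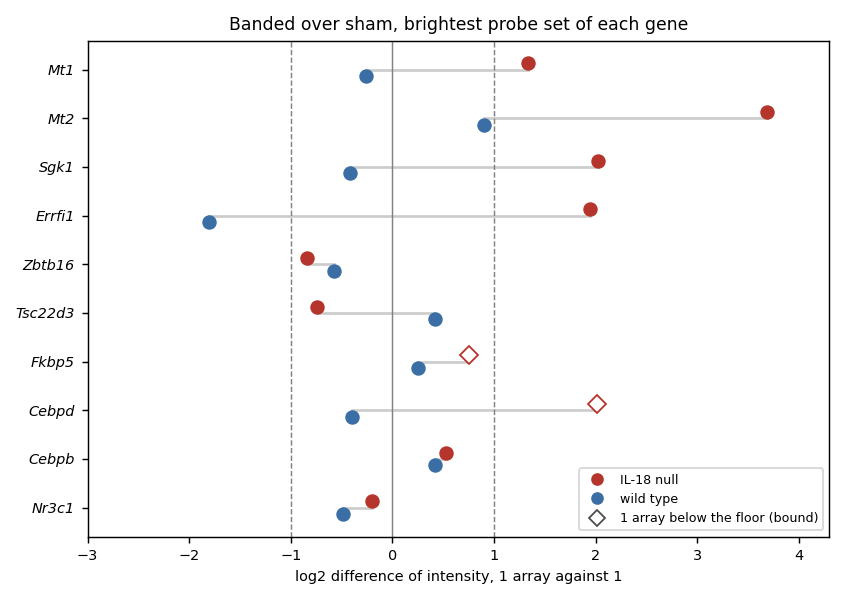
Log2 difference of intensity, banded over sham (x axis), for the brightest probe set of each gene (rows), in IL-18 null (red) and wild type (blue), 1 array against 1; open diamonds are bounds and dashed lines mark 2-fold. Mt1, Mt2, Sgk1, Errfi1 and Cebpd lie right of the 2-fold line in IL-18 null, and Errfi1 lies at -1.81 in wild type.

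Between the banded hearts, IL-18 null had higher Errfi1, Mt2 and Cebpd and lower Zbtb16 and Tsc22d3 than wild type. Errfi1 was higher by 2.67 (6.37-fold), Mt2 by 2.51 (5.68-fold), and Cebpd by 1.54 (2.91-fold). Of 4454 genes that reached the floor on both arrays, these had ranks 6, 10 and 52 from the highest. Mt1 was higher by 0.95, just short of 2-fold, and Sgk1 by 0.27. Zbtb16 was lower, at -1.59, and Tsc22d3 at -1.27. In all 3 of the 10 were higher and 2 lower, where 5.7% and 7.74% of 4947 genes passed, or 3.87% and 9.40% with cyclic loess (median 0.29 against 0.11 over all genes; -0.01 for the members with the mean of all probe sets). With that mean, Errfi1 was at 0.90 and Zbtb16 at -0.75, both within 2-fold. The 2 arrays compared here had 3′ excesses of 3.01 (IL-18 null) and 0.72 (wild type), and the part of that gap in these values was not tested.

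Between the sham hearts, no member was higher in IL-18 null and 3 were lower. Sgk1 was at -2.17 (4.49-fold lower), with rank 6 from the lowest of 4139 genes. Zbtb16 was at -1.33 and Errfi1 at -1.08; with cyclic loess Errfi1 was at -0.99, and with the mean of all probe sets at -0.11, and Zbtb16 with that mean at -0.76. Cebpd was at -0.87 as a bound, with IL-18 null sham below the floor, and Mt1 at -0.64. Of all 4851 genes 16.3% were higher and 6.29% lower (13.3% and 12.7% after quantile normalization), and the medians were -0.49 for the 10 genes and -0.07 for all. Each sham array enters a banding comparison too: IL-18 null sham is the array with the lowest Mt1, Mt2, Sgk1 and Cebpd, so these genes' IL-18 null banding differences and their sham genotype differences use the same low value.

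**Figure D3:**
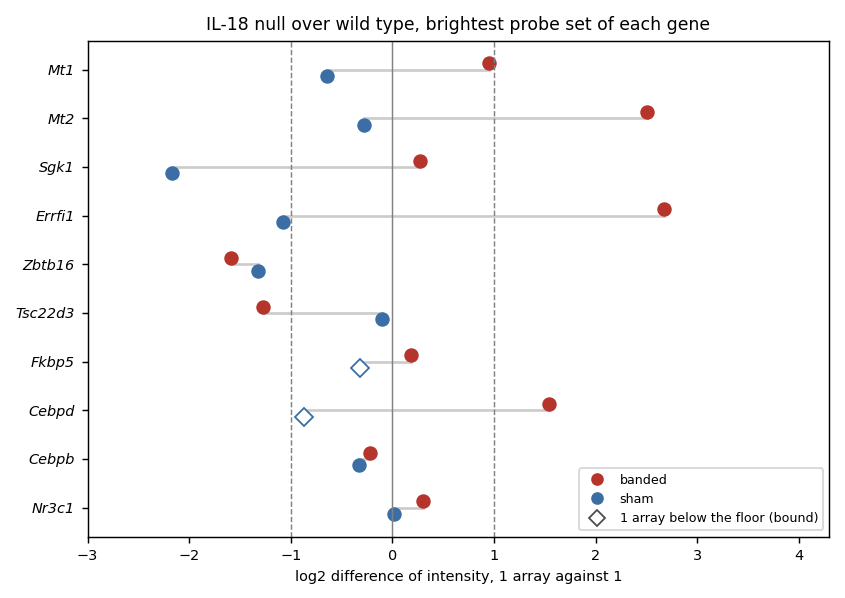
Log2 difference of intensity, IL-18 null over wild type (x axis), for the brightest probe set of each gene (rows), in banded (red) and sham hearts (blue), 1 array against 1; open diamonds are bounds and dashed lines mark 2-fold. Zbtb16 lies left of the line in both, Sgk1 only in sham, and Errfi1 on opposite sides.

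The one fit with a residual degree of freedom, an additive limma model of surgery and genotype over all 4 arrays, called no gene at an adjusted p under 0.05 (0 of 5158, 0% in each direction and term). At an unadjusted p under 0.05 it had 98 genes for banding and 13 for genotype. Mt2 was the member among the 98, with a banding term of 2.30 ± 0.81 (SE; limma adjusted p = 0.999999), higher in banded in both genotypes. Zbtb16 was the member among the 13, with a genotype term of -1.46 ± 0.55 (SE; limma adjusted p = 0.99999), lower in IL-18 null in both surgeries. Neither gene passed this unadjusted level without the intensity trend. Mt2 passed it after quantile normalization, cyclic loess and probe set averaging, but not after omission of probe sets ending in _s_at, _x_at or _a_at. Zbtb16 passed it after cyclic loess, but not after quantile normalization or probe set averaging. The model takes a difference of responses, as in Errfi1, as noise.

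Other genes of the same pathways were read for comparison. In the metal-response list, Mt3 and Mt4, the neuronal and epithelial metallothioneins, and Slc30a1, a zinc exporter induced by MTF-1, were below the floor on every array. Hmox1, heme oxygenase, had 203.1 on IL-18 null banded and 39.1 on IL-18 null sham, higher by at least 1.67, with 29.8 and 35.5 on wild-type banded and sham. Slc39a14, a zinc importer of the acute phase, had 237.8 and 120.7 on IL-18 null banded and sham (0.98) and 367.4 and 97.5 on wild-type banded and sham (1.91). Unlike Mt2, it was highest on wild-type banded. Txnrd1, thioredoxin reductase, was at 0.95 in IL-18 null and at least 2.43 in wild type, where sham lay below the floor. Cp, ceruloplasmin, was at 0.51 and 1.08 in IL-18 null and wild type, and Mtf1, the metal sensor, at -0.72 in wild type. In IL-18 null 1 of 6 measured genes of the list was higher and 0 lower (all genes 6.98% and 2.53%), and in wild type 3 of 5 were higher and 0 lower (all genes 21.7% and 12.8%).

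Of 17 measured other glucocorticoid-induced genes, 6 passed 2-fold upward and 0 downward with banding in IL-18 null (median 0.14, against 0.08 over all genes, of which 6.98% and 2.53% passed). Cdkn1a, a cell cycle inhibitor, was at least 2.28 higher, Angptl4, a lipoprotein lipase inhibitor, 1.34, Nfkbia, the inhibitor of NF-kappa-B, 1.22 and Tgm2, transglutaminase, 1.21. In wild type, 2 of 16 were higher and 2 lower (median -0.39, against -0.08 over all genes, of which 21.7% and 12.8% passed). There Ddit4, an inhibitor of mTOR signalling, was higher by at least 2.84 and Cdkn1a by 1.58, while Dusp1, a MAP kinase phosphatase, was at -1.90 and Klf9, a zinc finger factor, at -1.74. Klf9, a direct target of the receptor, had 2370.6 on IL-18 null banded and 4247.4 on IL-18 null sham, and 2146.1 on wild-type banded and 7169 on wild-type sham. Like Zbtb16 it was the lower in banded in both genotypes.

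Of 8 measured genes of the receptor's own machinery in IL-18 null banding, 0 were past 2-fold (median -0.18). Of all genes 6.98% were higher and 2.53% lower in that comparison. Hsd11b1, which regenerates active glucocorticoid inside cells, had 219.7 and 376.5 on IL-18 null banded and sham (-0.78) and 231.6 and 593.6 on wild-type banded and sham (-1.36). The coactivator gene Ncoa1 was at -0.37 and -0.88 in IL-18 null and wild type, and the chaperone genes Dnaja1 and Hspa8 were at -0.34 and 0.24 in IL-18 null. In wild type, the co-chaperone genes Fkbp4 (at least 3.83) and Stip1 (at least 2.12) were higher, with wild-type sham below the floor for both. The list had 2 higher and 1 lower of 9 there, beside 21.7% and 12.8% of all genes. These wild-type values set arrays with 3′ excesses of 0.72 (banded) and 4.74 (sham; 3.04 with the floor) against each other, and the part of that gap in them was not tested.

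The C/EBP and acute-phase list had 5 of 10 measured genes higher and 0 lower in IL-18 null banding (median 1.02), beside 6.98% and 2.53% of all genes. Il1b had 1368.5 on IL-18 null banded and 51.2 on IL-18 null sham (at least 4.42), with 26.3 and 60.1 on wild-type banded and sham. Il6 had 1286 and 7.6 on IL-18 null banded and sham (at least 4.33), with 12.5 and 62.1 on wild-type banded and sham. Both cytokines thus reached the floor on the IL-18 null banded array alone. Socs3, the feedback inhibitor of IL-6 signalling, was at 4.00 in IL-18 null and -1.57 in wild type, and Serpina3n, an acute-phase protease inhibitor, at least 2.13 and at least 0.76. In wild type 1 of 7 was higher, Stat3 by at least 2.93, and 1 lower, near the 21.7% and 12.8% of all genes. Il6st, the shared receptor chain of the IL-6 family, was at 0.79 there. The liver acute-phase genes Hp, Orm1 and Fgg and the gene Saa3 were below the floor on every array.

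Among partners of Sgk1 and Errfi1, Hbegf and Ereg, which encode ligands of the EGF receptor that Errfi1 restrains, were at least 1.07 and at least 1.04 higher in IL-18 null banding. Both were below the floor on the other 3 arrays. Ndrg1, an Sgk1 substrate, was at 0.77 in IL-18 null, and Nedd4l, a ubiquitin ligase and another substrate, at least 0.17 in IL-18 null and at least 0.37 in wild type. In wild type Egfr was at -0.62, Sgk3, a relative of Sgk1, at -0.69 and Pdpk1, the kinase that activates Sgk1, at -0.09. The counts were 2 higher and 0 lower of 7 in IL-18 null, and 0 and 0 of 5 in wild type, beside the same shares of all genes as above.

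**Figure D4:**
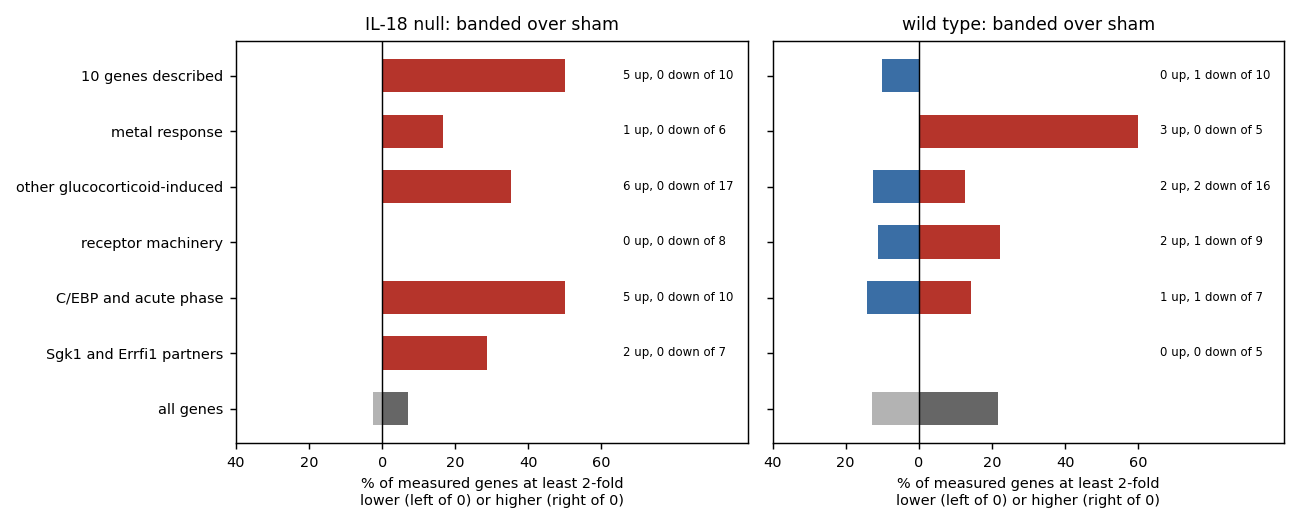
Share of measured genes of each list (rows) at least 2-fold higher (red, right of 0) or lower (blue, left of 0) in banded than in sham, in IL-18 null (left) and wild type (right); the grey row gives all genes, and the counts stand beside the bars. The 10 genes described had 5 higher and 0 lower in IL-18 null, and 0 higher and 1 lower in wild type.

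The genes nearest in pattern to Mt2 among 5157 others, by Euclidean distance between log2 values centred on each gene's mean over the 4 arrays, were Postn (0.37), Icam1 (0.61), Fn1 (0.67), Col5a2 (0.70) and Myh7 (0.78). Postn, which encodes periostin, had 8791.1 on IL-18 null banded and 851.5 on IL-18 null sham, and 2188.3 on wild-type banded and 932.2 on wild-type sham. Mt1 came only at position 188 in this order and Cebpd at 74. For Sgk1 the nearest were Ctla2a (0.40), Ctla2b (0.49), Ddx39a (0.65), Birc2 (0.71) and Edem1 (0.77), with Mt1 at position 121 and Errfi1 at 3540. The 10 genes therefore did not form 1 pattern over the arrays. The points share 4 arrays, and likeness over 4 values is a description only.

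**Figure D5:**
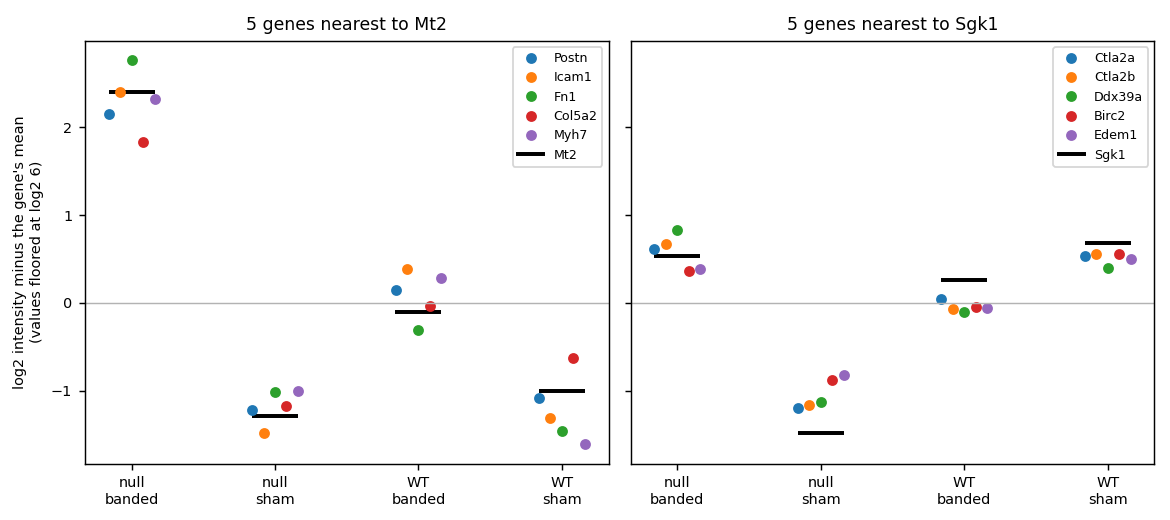
Log2 intensity minus each gene's mean over the 4 arrays (y axis, values floored at log2 6) on each array (x axis), for the 5 genes nearest to Mt2 (left) and to Sgk1 (right); black bars are Mt2 and Sgk1 themselves. Mt2 and its neighbours are highest on IL-18 null banded, and Sgk1 and its neighbours are lowest on IL-18 null sham.

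Summed macrophage markers and summed atrial markers had the same order over the arrays as Mt2, though not as Mt1. For both lists the sums of the sham arrays were close to each other. No single macrophage marker had that order, and of the atrial markers only Nppa had it. In bulk tissue more cells of a type and more RNA per cell cannot be told apart. The summed intensity of 10 macrophage markers was 11027.4 on IL-18 null banded, 4092.9 on IL-18 null sham, 6635.7 on wild-type banded and 4209.6 on wild-type sham. The atrial markers summed to 15223 and 4080.8 on IL-18 null banded and sham and to 11136.4 and 4273.3 on wild-type banded and sham. In IL-18 null banding 6 of 9 measured macrophage markers were higher and 0 lower, and in wild type 5 of 9 and 0. Beside these and the marker counts below, 6.98% of all genes were higher and 2.53% lower in IL-18 null banding. In wild-type banding the shares were 21.7% and 12.8%. The 10 fibroblast markers summed to 38924.5 and 14064.5 on IL-18 null banded and sham and to 26130.8 and 10826.7 on wild-type banded and sham, with 6 of 9 measured higher in each genotype. For neutrophils the sums were 1235.8 and 797.5 on IL-18 null banded and sham and 305.7 and 1302.8 on wild-type banded and sham, with 3 of 7 markers measured and Csf3r, Ngp, Camp and Mmp9 below the floor throughout. Endothelial markers had 0 of 8 measured past 2-fold in IL-18 null banding (median -0.22). In wild type 5 of 10 were higher and 0 lower (median 1.16). Cardiomyocyte markers had 0 of 10 past 2-fold in IL-18 null banding and 2 higher in wild type, near the share of all genes. Their sums were 198621 and 202803 on IL-18 null banded and sham and 215396 and 175366 on wild-type banded and sham. All 5 mast cell markers were below the floor on every array. Of 5 adipocyte markers on the array 4, among them Adipoq and Lep, were also below it, and Fabp4, which endothelial cells express too, had 13519.9 to 14101.4. The part of macrophages, fibroblasts and atrial tissue in the Mt2 values was not tested.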

How the data were processed

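Total RNA of mouse heart muscle was labelled with biotin and hybridised to 4 arrays, 1 per group, and groups were taken from the sample titles. The deposited values are intensity values per probe set on a linear scale; per the submitters' processing notes the authors computed them with GCRMA, whose version and settings are not given in the sources used here. The linear scale was read from the values. Affymetrix scanner files were not used here.

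The platform annotation gave 20380 of 22690 probe sets a single gene (12393 genes); 691 had several genes, 1555 had none and 64 were controls. All 10 member symbols matched the RefSeq gene table of GRCm38.p6 by gene identifier. Intensities were taken to log2 (values under 1 would have been set to 1), and values below log2 6 (64 intensity units) were set to that floor. A gene was counted once, by its brightest probe set (mean log2 over the arrays), and entered a comparison if at least 1 of the arrays compared reached the floor. Differences of at least 1 (2-fold) were counted with no test. As a secondary fit, limma 3.58.1 in R 4.3.3 (lmFit and eBayes with an intensity trend, terms for surgery and for genotype, leaving 1 residual degree of freedom, Benjamini-Hochberg adjustment over 5158 genes) was run on unfloored log2 values. Both procedures were tested on simulated data. Alternatives were floors at log2 5 and 7 and none, cyclic loess, quantile normalization, averaging a gene's probe sets, omission of those ending in _s_at, _x_at or _a_at, a 1.5-fold rule, limma without the trend and an adjusted p of 0.1.

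The members, the other gene lists and the tests were chosen with earlier results of these data known. Named genes were all members, the up to 4 genes of each pathway list with the largest difference between the IL-18 null arrays and between the wild-type arrays, and the 5 genes nearest to Mt2 and to Sgk1 by Euclidean distance between centred log2 values. The pathway lists were metal response, other glucocorticoid-induced genes, glucocorticoid receptor machinery, C/EBP and acute phase, and Sgk1 and Errfi1 partners; marker lists covered 12 cell types. The number of arrays limits the precision.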

Additional observations from a re-analysis of the deposited data

Results flagged for a closer look

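By their brightest probe sets, 7 of the genes had an effect with opposite signs between genotypes or between surgeries. The second measured Nr3c1 probe set, not counted here, had opposite signs too, all within 2-fold. Its banding differences were 0.44 in IL-18 null and -0.10 in wild type. Its IL-18 null over wild type differences were 0.36 in banded and -0.18 in sham hearts. With 1 array per group these differences between differences were not tested. Banding in IL-18 null and in wild type gave opposite signs for Errfi1 (1.94 and -1.81, difference 3.75), Sgk1 (2.02 and -0.42, difference 2.44), Cebpd (2.01 as a bound and -0.40, difference 2.41, also a bound), Mt1 (1.33 and -0.26, difference 1.59) and Tsc22d3 (-0.74 and 0.42, difference -1.16). By the brightest probe set both sides were past 2-fold for Errfi1, and neither was for Tsc22d3. With the mean of all probe sets this was reversed. Errfi1 was then at 0.67 and -0.34, and Tsc22d3 at -1.14 and 1.42, in IL-18 null and wild type.

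Read the other way, as IL-18 null over wild type in banded and in sham hearts, the same differences appear for Errfi1 (2.67 and -1.08), Sgk1 (0.27 and -2.17), Cebpd (1.54 and -0.87, a bound) and Mt1 (0.95 and -0.64). Here Mt2 (2.51 and -0.28, difference 2.79) and Fkbp5 (0.18 and -0.32, a bound, difference 0.50) had opposite signs as well. Both readings use the same 4 arrays and are 1 observation, not 2. The wild-type sham array, which had the lowest correlations with the other arrays, enters each difference. So does wild-type banded, the array apart by the 3′ excess with values set to the floor.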

How the results depend on the processing

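No paired analysis was possible because each group has 1 pooled array. No call changed its sign under any alternative run. In IL-18 null banding (5 members higher, 0 lower), the mean of all probe sets gave 2 higher and 1 lower of 8 measured, and the 1.5-fold rule gave 2 lower. In wild-type banding (0 higher, 1 lower), quantile normalization gave 2 lower, cyclic loess 1 higher, the mean of all probe sets 1 higher and 0 lower, and the 1.5-fold rule 1 higher. Between sham arrays (3 lower), the mean gave 1 lower and the 1.5-fold rule 5. Between banded arrays (3 higher, 2 lower), the mean gave 1 higher and 1 lower, and leaving out probe sets ending in _s_at, _x_at or _a_at gave 0 lower of 7 measured. For the difference of responses (1 lower) that omission gave 0 lower. The mean takes in probe sets below the floor. The omission leaves Tsc22d3 with no probe set, and Mt1 and Zbtb16 only with probe sets below the floor on every array. The other 78 member counts stayed within 1.5 times. Over all genes, wild-type banding had 1096 higher and 647 lower, 852 and 1273 after quantile normalization, 1238 and 426 with cyclic loess and 993 and 304 with the mean. The sham comparison had 789 higher and 305 lower, and 668 and 638 after quantile normalization. The banded comparison had 282 and 383, and 195 and 474 with cyclic loess. After quantile normalization limma called 47 genes for banding and 7 for genotype at an adjusted p under 0.05, where it called 0 as deposited; 0 members were among them, with a smallest member adjusted p of 0.103. Signal near the floor limits Fkbp5 and Cebpd.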
